A study of Homo sapiens with 4 samples.

Results

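The genes described here are PCSK1 and 9 further genes of the prohormone processing machinery, PCSK2, PCSK5, PCSK6, PCSK7, FURIN, CPE, SCG2, SCG5 and PAM. They were taken by symbol from the deposited gene count tables and make up 10 of the 20363 genes listed. PCSK1 was chosen by its counts, which were higher with ZNF521, so its difference between ZNF521 and CTL cells is given as a description, with no test. The other 9 were picked for their roles in the same pathway.

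RNA of DAOY cells, a human medulloblastoma line from the cerebellum, was sequenced in 4 libraries, 1 for each condition. CTL cells and ZNF521 cells were each kept with DMSO, the vehicle, or with SAG, an agonist of Smoothened that switches on Sonic hedgehog (SHH) signalling. ZNF521 is a zinc-finger transcription co-factor, and the ZNF521 cells carried it on a lentivirus that also makes EGFP through an IRES, by which transduced cells were sorted. The series text calls the control cells WT while the legend of the study names the empty vector, so it is not settled here whether the CTL cells carried the vector. All 4 libraries come from 1 cell line. Counts also do not separate the RNA of the transgene from that of the cell's own ZNF521 gene. Since no condition was repeated, the spread used in the main tests comes from the additive fit of both factors over the 4 libraries, with 1 residual degree of freedom and a variance prior of 11.7 degrees of freedom shared over genes. Both comparisons use the same 4 libraries and the same residual, so their results are not independent of each other.

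The libraries held between 12294833 and 16314685 counts. The ZNF521 gene itself stood at a normalized count of 714 and 751 in the CTL cells and 2013 and 2072 in the ZNF521 cells (log2 fold change 1.47, SE 0.148, adjusted p 0.00357, edgeR), and the SHH target GLI1 was higher with SAG by 2.44 on the log2 scale (SE 0.222). Both matched the labels. The CTL DMSO library stood apart from the others. Over 9161 well counted genes its log2 levels scattered about the gene means with an SD of 0.273, against 0.126 to 0.142 in the other 3. Its summed level of 8 mesenchymal markers, collagens among them, was 143926, against 82636 to 89203 in the others. VIM (29381, against 29673 in CTL SAG) and THY1 (2730, against 2840 in ZNF521 DMSO) were not highest in it, while the other listed markers were. The part of the CTL DMSO library in the differences described here was not tested. Values without it are given beside the results that it moves most. They come from 3 libraries with only the compared factor in the model, so that 1 arm is a single library and the effects of ZNF521 and SAG cannot be told apart in them.

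Most peptide hormones and many growth factors, receptors and adhesion proteins are made as longer precursors. Proprotein convertases of the subtilisin family cut these after basic residues, a carboxypeptidase trims the exposed basic residues, and an amidating enzyme finishes the end of many peptides. In endocrine cells and neurons PCSK1 and PCSK2 do the cutting inside dense-core granules, while FURIN, PCSK5, PCSK6 and PCSK7 work in the constitutive pathway of nearly every cell. Granins and the small protein 7B2, the product of SCG5, serve as cargo and chaperone of these granules.

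DAOY cells carry only some markers of the cerebellar granule lineage from which this tumour class is thought to arise. ZIC1, ZIC2, PAX6, MEIS1 and OTX2 were counted in every library, with OTX2 the lowest of these at 62.3 to 78.2 normalized counts, while ATOH1, BARHL1 and NEUROD2 reached at most 2.06 normalized counts in any library. NEUROD1 and CNTN2, markers of maturing granule cells, stayed at or under 8.44 and 29.2. Of the neuroendocrine markers, SYP, NCAM1 and ENO2 were well counted, but CHGA, the classic dense-core granule granin, lay between 5.64 and 21.1. CHGB and INSM1 reached 63.3 and 13.1. In bulk samples such as these, fewer cells of one kind and less RNA per cell cannot be told apart.

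The start of PCSK1 is shown first because its letters set it apart from the other members. The 250 bases before its RefSeq start site, GRCh38.p14 chr5:96433249-96433498 on the minus strand, hold the cAMP response element TGACGTCA from 77 to 70 bases before the start, and a further half-site TGACG from 49 to 45 bases before it. This stretch lies before the first exon of one GENCODE transcript of PCSK1 and within the first intron of another, and both motifs are in capitals.
PCSK1: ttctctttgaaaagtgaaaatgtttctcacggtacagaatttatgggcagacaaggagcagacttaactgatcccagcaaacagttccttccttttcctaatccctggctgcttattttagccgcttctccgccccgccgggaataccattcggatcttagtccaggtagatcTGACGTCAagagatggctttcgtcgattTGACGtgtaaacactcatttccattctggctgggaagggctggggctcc

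RefSeq gave such a stretch for 9 of the 10 genes, all but SCG2. Over 27305 RefSeq promoters of the same length, TGACGTCA occurred on either strand in 1.77%, and of the 9 members it occurred in PCSK1 alone. The half-site TGACG, which also lies within TGACGTCA, occurred in 21.7% of all promoters and in 5 of the 9 members, PCSK1, PCSK2, PCSK5, CPE and SCG5. The half-sites of the other 4 genes are shown with 10 bases on either side, with the half-site or its reverse complement CGTCA in capitals, to show the bases around each of them. The printed windows lie at chr20:17225940-17225964 (PCSK2), chr9:75890536-75890560 (PCSK5), chr4:165378777-165378801 and chr4:165378878-165378902 (CPE) and chr15:32641683-32641707 (SCG5), all read on the plus strand. The half-sites of PCSK2 and PCSK5 match on the minus strand. A GLI motif, GACCACCCA, was found in 0.216% of all promoters and a TATA motif, TATAAA, in 11.1%, and neither was found in any of the 9 members. A match of letters is a description of the sequence and does not show that a factor binds there.
PCSK2: cggagtccgtCGTCAgcagttagca
PCSK5: gctaggacctCGTCAgcgcctggct
CPE, first: ccatacgcagTGACGtgggtgggtc
CPE, second: atttggctgtTGACGtggttccgag
SCG5: cggaggagggTGACGcactagctct

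PCSK1 (ENSG00000175426.11, chr5:96390333-96434143, minus strand, hg38) encodes prohormone convertase 1/3, the granule enzyme that makes the first cuts in precursors such as proopiomelanocortin and proinsulin. Its normalized count was 712 in CTL DMSO, 607 in CTL SAG, 1288 in ZNF521 DMSO and 984 in ZNF521 SAG cells. Both ZNF521 libraries lay above both CTL libraries, and within each kind of cell the SAG library lay below the DMSO library. In raw counts the same libraries held 708, 538, 1252 and 1166 reads. The order was therefore ZNF521 DMSO, ZNF521 SAG, CTL DMSO and CTL SAG, and each step exceeded counting error, with ratios of 1.31 (95% interval 1.21 to 1.42), 1.38 (1.26 to 1.52) and 1.17 (1.05 to 1.31). These intervals are exact Clopper-Pearson intervals, and like all intervals of ratios given here they cover counting error only. The middle step, ZNF521 SAG over CTL DMSO, is part of the contrast that chose PCSK1 and is given as a description.

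**Figure D1:**
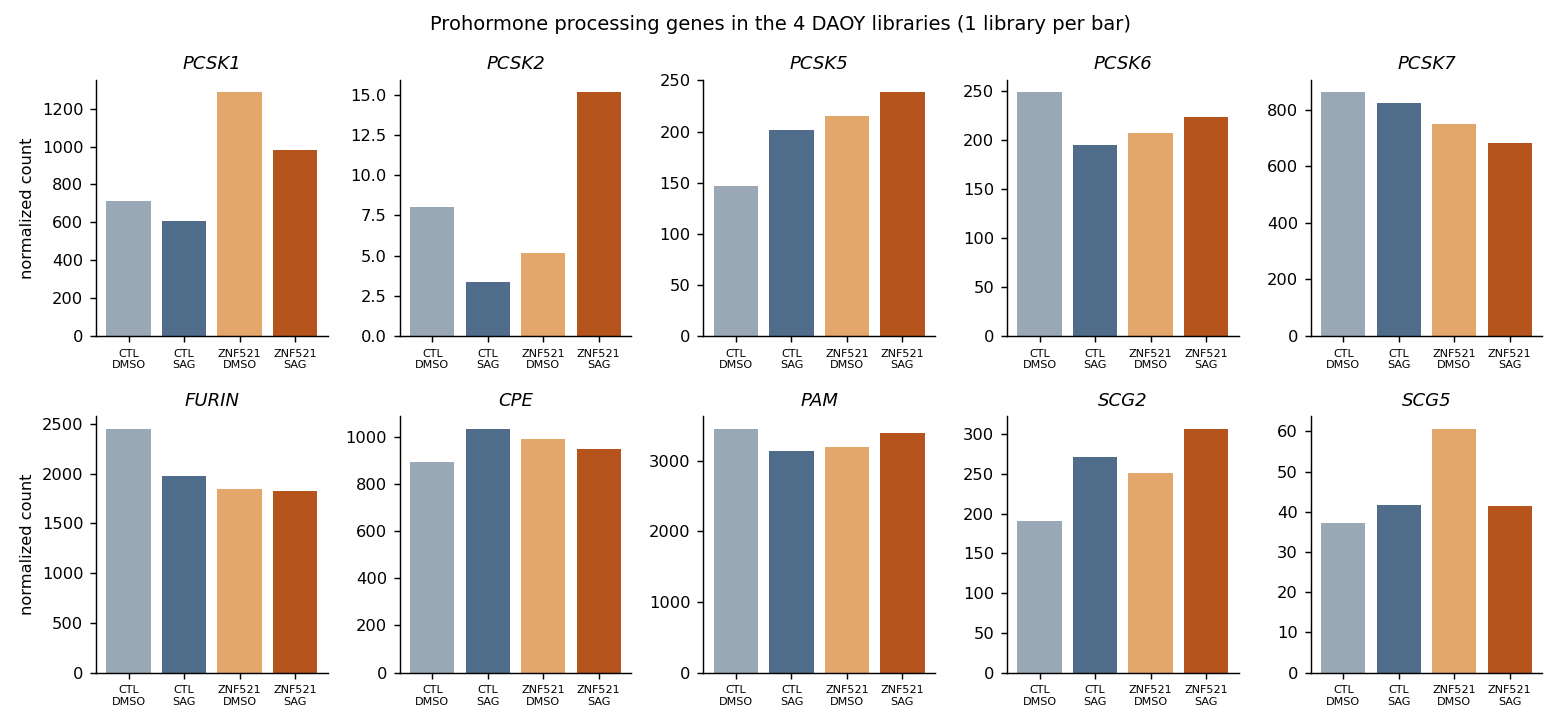
Normalized count (counts divided by the authors' size factor) of each of the 10 genes in each library, 1 bar per library and 1 panel per gene, each with its own axis from 0. PCSK1 stands at 1288 and 984 in the ZNF521 libraries against 712 and 607 in the CTL libraries, while the bars of PAM run from 3133 to 3452.

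PCSK1 was 1.81 times higher with ZNF521 in DMSO (1.65 to 1.99) and 1.62 times higher in SAG (1.46 to 1.80). The additive fit put the difference at 1.70-fold, a log2 fold change of 0.77 with SE 0.152, as a description since this contrast chose the gene. Leaving out the CTL DMSO library and fitting ZNF521 alone gave 0.91, and leaving out each library in turn gave 0.57 to 0.95.

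The SAG contrast did not choose PCSK1, but it shares the libraries and the residual with the contrast that did, so its test is not independent of the choice. With SAG, PCSK1 stood at 0.853 of its DMSO level in CTL cells (0.761 to 0.955) and at 0.764 in ZNF521 cells (0.704 to 0.828). The log2 fold change was -0.31 (SE 0.151, 95% interval -0.64 to 0.016), which did not pass (edgeR, p 0.0608, adjusted p 0.456). The direction was lower in both kinds of cells, and the interval includes 0. With GC offsets it was -0.45 with an unadjusted p of 0.00566 and an adjusted p of 0.992 (edgeR). With 1 library left out the log2 fold change ran from -0.72 without ZNF521 SAG to 0.17 without ZNF521 DMSO. It was -0.69 without CTL DMSO and -0.021 without CTL SAG. Each of these fits leaves 1 arm with a single library. The value of each therefore also holds the difference between ZNF521 and CTL cells, by which PCSK1 was chosen.

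**Figure D2:**
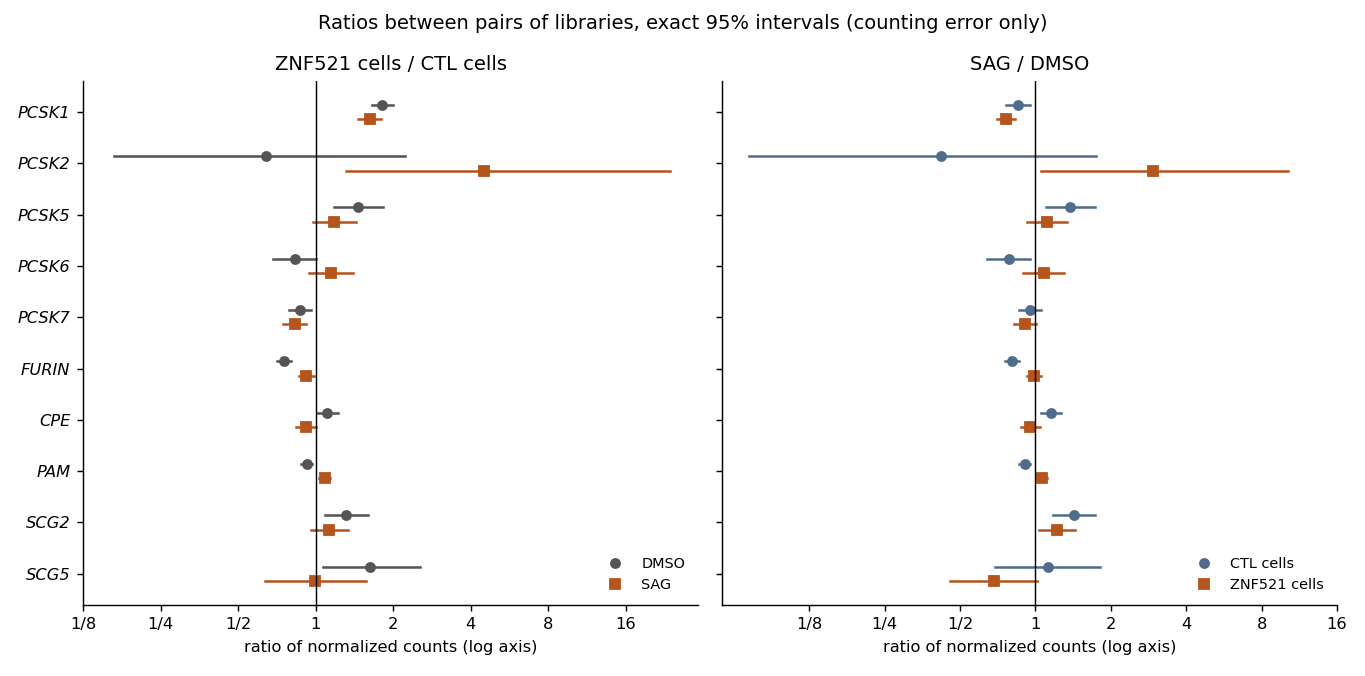
Ratio of normalized counts between 2 libraries for each gene, on a log axis, with exact 95% intervals for counting error: ZNF521 over CTL cells in DMSO and in SAG, and SAG over DMSO in CTL and in ZNF521 cells. PCSK1 lies at 1.81 and 1.62 for ZNF521 and below 1 for SAG in both kinds of cells, and the intervals of PCSK2 are the widest because it had 3 to 18 counts.

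PCSK2, the partner of PCSK1 in granules and the convertase that carries processing further, was close to background. It had 8, 3, 5 and 18 counts in CTL DMSO, CTL SAG, ZNF521 DMSO and ZNF521 SAG cells, or 8.04, 3.38, 5.14 and 15.2 normalized counts, and did not pass the filter of at least 10 counts in at least 2 libraries. Only the ZNF521 SAG library exceeded 10 counts. Its ratio of 4.49 between the SAG libraries had an interval from 1.31 to 23.8, whereas in DMSO the ratio was 0.640 (0.164 to 2.22), so no direction can be read for PCSK2 across both treatments.

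PCSK5 cuts growth factor and cell surface precursors in the constitutive pathway. It stood at 147 and 202 normalized counts in CTL DMSO and CTL SAG and at 215 and 239 in ZNF521 DMSO and ZNF521 SAG cells. The CTL DMSO library was the low one, and both ZNF521 libraries lay above both CTL libraries. The ratio with ZNF521 was 1.47 in DMSO (1.18 to 1.82) and 1.18 in SAG (0.977 to 1.43), and the log2 fold change of 0.38 (SE 0.180) did not pass (edgeR, p 0.0552, adjusted p 0.924). Without the CTL DMSO library it was 0.18. The steps among the upper 3 of its 4 levels were within counting error, but CTL SAG was 1.38 times CTL DMSO (1.10 to 1.72).

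PCSK6, also called PACE4, acts at the cell surface and on the extracellular matrix. Its normalized counts were 249, 195, 207 and 224 in CTL DMSO, CTL SAG, ZNF521 DMSO and ZNF521 SAG cells. No step between neighbouring levels exceeded counting error, and the ZNF521 ratio lay below 1 in DMSO (0.830) and above 1 in SAG (1.15). Between libraries that are not neighbours in level, CTL SAG stood at 0.783 of CTL DMSO (0.641 to 0.954), past counting error. Neither log2 fold change, -0.049 for ZNF521 and -0.12 for SAG (SE 0.185 for each), passed (edgeR, adjusted p 0.991 and 0.826).

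PCSK7, the most distant relative among these constitutive convertases, was lower in both ZNF521 libraries, at 751 and 684 normalized counts, than in both CTL libraries, at 863 and 824. The ratios were 0.870 in DMSO (0.787 to 0.961) and 0.830 in SAG (0.750 to 0.919), both past counting error, but the log2 fold change of -0.25 (SE 0.151) did not pass (edgeR, p 0.127, adjusted p 0.957). Exons of PCSK7 overlap those of TAGLN on the opposite strand by 2233 bases. The libraries were strand-specific but the strand setting of the counting was not given in the sources used here. TAGLN had 829 to 1053 counts, and how reads of the shared bases were assigned is not known.

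FURIN, the founding member of the family, cuts receptors, growth factors and matrix enzymes in the trans-Golgi network. It stood at 2453 normalized counts in CTL DMSO, 1978 in CTL SAG, 1850 in ZNF521 DMSO and 1822 in ZNF521 SAG cells. As with PCSK7, both ZNF521 libraries lay below both CTL libraries, and the CTL DMSO library was the high one. The ZNF521 ratio was 0.754 in DMSO (0.709 to 0.802) and 0.921 in SAG (0.864 to 0.981), and the log2 fold change was -0.27 (SE 0.150, edgeR, p 0.0911, adjusted p 0.952). Without CTL DMSO it was -0.10. FURIN had the highest GC content of the 10 genes over its longest transcript, 61.7%, against 42.8% for PCSK1, and offsets for GC content turned its SAG difference from -0.17 to 0.072 on the log2 scale.

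CPE, carboxypeptidase E, trims the basic residues that PCSK1 and PCSK2 leave at the end of each peptide. It stood at 896, 1035, 993 and 948 normalized counts in CTL DMSO, CTL SAG, ZNF521 DMSO and ZNF521 SAG cells. No step between neighbouring levels exceeded counting error, but 2 pairs did, both against CTL DMSO, the lowest library. CTL SAG was 1.16 times higher (1.05 to 1.27) and ZNF521 DMSO 1.11 times higher (1.01 to 1.22). The ZNF521 ratio in SAG was 0.916, on the other side of 1. The log2 fold change was -0.00057 for ZNF521 (SE 0.155) and 0.070 for SAG (SE 0.153), with adjusted p of 0.999 and 0.876 (edgeR).

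PAM, which amidates the end of peptides whose last residue is glycine, stood at 3452, 3133, 3193 and 3393 normalized counts in the same order. Its log2 fold changes were -0.0100 for ZNF521 and -0.026 for SAG (SE 0.152 for each), with adjusted p of 0.997 and 0.957 (edgeR). As with CPE, the fitted value lies between pairs of opposite direction, since the ZNF521 ratio was 0.925 in DMSO (0.881 to 0.971) and 1.08 in SAG (1.03 to 1.14).

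SCG2, secretogranin II, is a granule cargo protein that is itself cut into the peptide secretoneurin. It stood at 191 normalized counts in CTL DMSO, 272 in CTL SAG, 251 in ZNF521 DMSO and 307 in ZNF521 SAG cells. The SAG library was above the DMSO library in both kinds of cells, by 1.42 times in CTL (1.17 to 1.73) and 1.22 times in ZNF521 cells (1.04 to 1.44). The SAG log2 fold change of 0.40 (SE 0.170, 95% interval 0.028 to 0.76) had an unadjusted p of 0.0369 and an adjusted p of 0.415 (edgeR), so it did not pass over all genes. With offsets for GC content it was 0.25, and without the CTL DMSO library 0.20. For ZNF521 the log2 fold change was 0.27 (SE 0.170, edgeR, adjusted p 0.962), and 0.047 without CTL DMSO.

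SCG5 encodes 7B2, the chaperone that PCSK2 needs to become active. It was thinly counted, with 37, 37, 59 and 49 counts or 37.2, 41.7, 60.7 and 41.3 normalized counts in CTL DMSO, CTL SAG, ZNF521 DMSO and ZNF521 SAG cells. The ZNF521 DMSO library was the high one, and no step between neighbouring levels exceeded counting error. Its ratio with ZNF521 was 1.63 in DMSO (1.06 to 2.53) and 0.991 in SAG (0.633 to 1.56), and the log2 fold change of 0.34 (SE 0.293) had an adjusted p of 0.981 (edgeR). The gene shares 1129 exonic bases with the read-through transcript ARHGAP11A-SCG5 on the same strand, which was not analysed here.

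Counted over the members other than PCSK1, ZNF521 gave 3 of 8 tested genes with a higher and 5 with a lower value, and a median log2 fold change of -0.0053. Without the CTL DMSO library 5 of the 8 were higher, with a median of 0.062. By edgeR 0 of the 8 passed the adjusted threshold of 0.05, where 0.00668% of all 14970 genes tested passed, and 0 had an unadjusted p up to 0.05, where 5.48% of all genes did, 2.36% with a higher and 3.11% with a lower value. DESeq2 and limma also gave 0 at either threshold. Both ZNF521 libraries lay above both CTL libraries in 1 member, PCSK5, and below both in 2, PCSK7 and FURIN, where 13.3% and 13.0% of all genes tested did so. Beside PCSK1, the only tested member past 1.5-fold in a pair of libraries was SCG5, in DMSO, where 6.89% of all genes were at least that much higher and 8.76% at least that much lower with ZNF521. In SAG these shares were 3.37% and 2.87%.

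With SAG, 9 members were tested, PCSK1 among them, of which 3 had a higher and 6 a lower value, with a median log2 fold change of -0.10. Without CTL DMSO 5 were higher and the median was 0.018. By edgeR 0 passed the adjusted threshold, where 0.0401% of all genes did, and 1, SCG2, had an unadjusted p up to 0.05 with a higher value, where 6.21% of all genes did in that direction and 11.3% in either. DESeq2 gave 0 members at either threshold, and limma gave 0 adjusted and 1 unadjusted. Both SAG libraries lay above both DMSO libraries in 1 member, SCG2, where 25.4% of all genes tested did, and below both in 0, where 22.7% did. No tested member was past 1.5-fold between SAG and DMSO in either kind of cells. In CTL cells 8.68% of all genes were past it with a higher value and 10.8% with a lower one, and in ZNF521 cells 2.96% and 3.67%.

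Levels of different genes were compared as normalized counts per kb of merged exons, averaged over the 4 libraries. PAM and FURIN led at 438 and 408 per kb, followed by CPE at 310, PCSK1 at 168 and SCG2 at 99.0. PCSK7 stood at 35.2, SCG5 at 20.6, PCSK5 at 15.04 and PCSK6 at 10.1, and PCSK2 came last at 1.13. PCSK1 was thus the more counted of the 2 granule convertases by a wide margin and lay below FURIN, the leading constitutive convertase, in every library. The merged exons of PCSK6 and PCSK7 run to 21740 and 22206 bases against 4852 and 9347 for their longest transcripts. Per kb of longest transcript PCSK7 stood at 83.5 and PCSK6 at 45.1, which put PCSK6 above SCG5 (36.6) and PCSK5 (19.6), while the order of the 5 leading genes was the same.

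**Figure D3:**
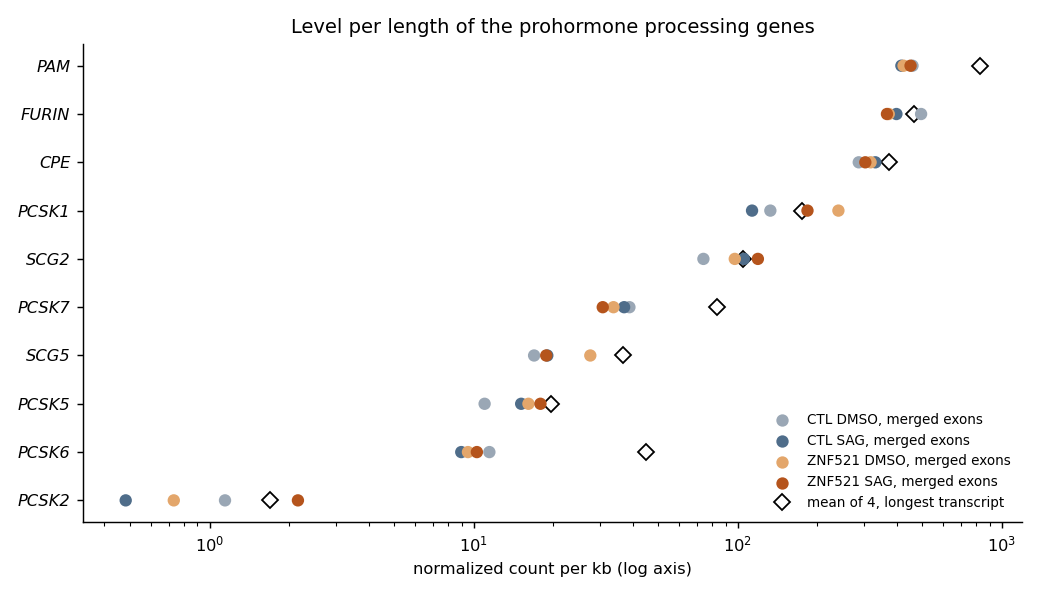
Normalized count per kb of each gene on a log axis: dots are the 4 libraries over merged exons, and diamonds are the mean over the longest transcript. PAM, FURIN and CPE lie highest, PCSK1 follows at a mean of 168 per kb, and PCSK2 lies lowest at 1.13.

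The tested genes nearest to PCSK1 on chromosome 5 had their levels in another order than PCSK1. CAST, the calpain inhibitor calpastatin, lies 91.1 kb away and stood at 2749, 3070, 3047 and 3232 normalized counts in CTL DMSO, CTL SAG, ZNF521 DMSO and ZNF521 SAG cells, with a ZNF521 log2 fold change of 0.10 (SE 0.147, edgeR, adjusted p 0.988). ELL2, a transcription elongation factor, lies 428 kb away on the other side and stood at 552, 722, 607 and 708, with a ZNF521 log2 fold change of 0.043 (SE 0.154, edgeR, adjusted p 0.991). In both genes the 2 CTL libraries and the 2 ZNF521 libraries overlapped.

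The genes with the pattern most like that of PCSK1 were found as those with the smallest Euclidean distance between log2 levels (normalized count plus 1, centred on the gene mean) over the 4 libraries, among the 12094 genes whose normalized counts averaged 50 or more. They were HLA-DMB, a chaperone of MHC class II loading (distance 0.141), PDE7B, a cAMP phosphodiesterase (0.181), GDF15, a secreted stress cytokine (0.185), TJP3, a tight junction protein (0.210), and GUCY1A2, a subunit of guanylate cyclase (0.213). HLA-DMB stood at 119, 115, 232 and 169 normalized counts and GDF15 at 135, 105, 204 and 170, in the order CTL DMSO, CTL SAG, ZNF521 DMSO and ZNF521 SAG. GUCY1A2 stood at 285, 226, 476 and 437. Of the other members the nearest to PCSK1 was PCSK5, at a distance of 0.726 and rank 1367 among these genes. A pattern over 4 libraries gives few ways for genes to differ, and likeness was used for no test.

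The rest of the pathway was described from fixed lists. Of the other subtilisin-like convertases, MBTPS1, the site-1 protease, lay between 2637 and 3183 and PCSK4 between 22.6 and 30.2 normalized counts. Their ZNF521 log2 fold changes were -0.16 (SE 0.151, adjusted p 0.984) and 0.032 (SE 0.338, adjusted p 0.997), which did not pass (edgeR).

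Of 11 other carboxypeptidases, end-modifying enzymes and inhibitors, 7 were tested, with 5 higher and 2 lower for ZNF521 (median log2 fold change 0.083) and 3 higher and 4 lower for SAG (median -0.051). Without CTL DMSO 3 were higher for ZNF521 (median -0.022) and 1 for SAG (median -0.078). PCSK1N encodes proSAAS, an inhibitor of PCSK1, and had the smallest p of this list. It stood at 1662 normalized counts in CTL DMSO, 1010 in CTL SAG, 957 in ZNF521 DMSO and 768 in ZNF521 SAG cells. The CTL DMSO library was the high one. The log2 fold change was -0.61 for ZNF521 (SE 0.160, p 0.00226, adjusted p 0.679) and -0.52 for SAG (SE 0.160, p 0.00652, adjusted p 0.391, edgeR). Without the CTL DMSO library these were -0.23 and -0.12, and with GC offsets the SAG value was -0.23 (p 0.125, edgeR). Among the enzymes, CPD, a carboxypeptidase of the trans-Golgi network, stood at 2424, 2630, 2630 and 3486, CPM at 79.4, 60.9, 90.6 and 101.2, and CPXM1 at 197, 193, 248 and 201.

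**Figure D4:**
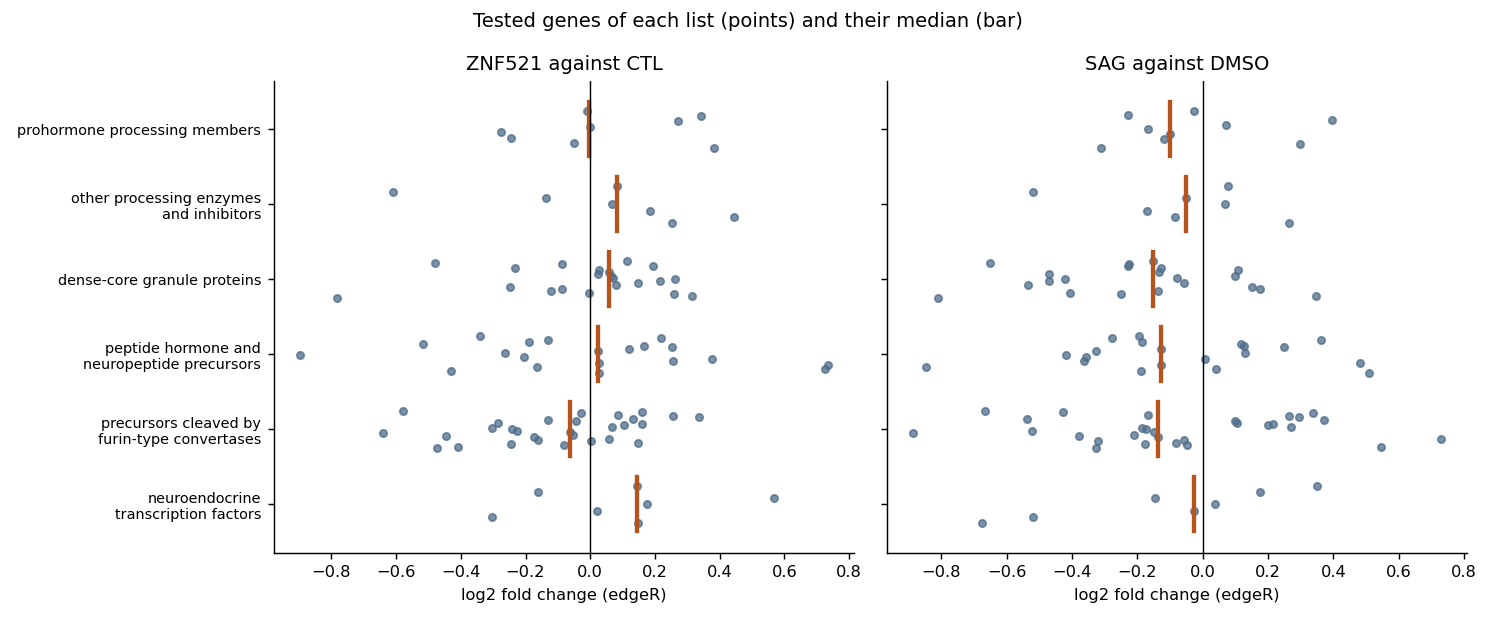
Log2 fold changes from edgeR for the tested genes of each list shown, 1 point per gene with the list median as a bar, for ZNF521 against CTL and for SAG against DMSO. PCSK1 is left out of the ZNF521 panel because that contrast chose it, and the medians of most lists lie near the 0 line, with the precursors cut by furin-type convertases at -0.063 for ZNF521 and -0.14 for SAG.

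Of 25 proteins of dense-core granules, 21 were tested. With SAG 5 were higher and 16 lower (median log2 fold change -0.15), 4 of the lower ones with an unadjusted p up to 0.05, as 5.12% of all genes had, and 0 passed after adjustment (edgeR). These 4 were VAMP2, a vesicle SNARE (-0.65, adjusted p 0.391), RAB26, a vesicle GTPase (-0.47, adjusted p 0.391), HID1, which acts in granule formation (-0.54, adjusted p 0.400), and BAIAP3, which acts in granule trafficking (-0.47, adjusted p 0.418). VAMP2 stood at 192 normalized counts in CTL DMSO, 107 in CTL SAG, 122 in ZNF521 DMSO and 89.4 in ZNF521 SAG cells. With GC offsets the SAG values of RAB26, HID1 and BAIAP3 were -0.25, -0.32 and -0.19, with unadjusted p of 0.131, 0.141 and 0.333 (edgeR), and without CTL DMSO that of VAMP2 was -0.33 (p 0.126). Without CTL DMSO the list had 8 higher genes and a median of -0.061. With ZNF521 13 were higher and 8 lower, with a median of 0.057, and without CTL DMSO 15 were higher, with a median of 0.27. VAMP2, with a ZNF521 log2 fold change of -0.48 (p 0.0382, adjusted p 0.907, edgeR), was the 1 gene of the list with an unadjusted p up to 0.05 there, where 3.11% of all genes had one with a lower value, and its value was -0.022 without CTL DMSO.

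Of 55 hormone and neuropeptide precursors on the list 48 had a row in the table and 20 had enough counts to be tested. EDN3, the precursor of endothelin 3, named after its values were seen, was by far the most counted, at 1026 to 1313 normalized counts. POMC, a main substrate of PCSK1, lay between 5.03 and 12.4 normalized counts. PENK, proenkephalin, lay between 70.9 and 108, NMB, GAL and ADM between 64.1 and 108 normalized counts. With ZNF521 11 were higher and 9 lower (median 0.024), with SAG 9 and 11 (median -0.13), and 0 passed after adjustment (edgeR). Without CTL DMSO 12 were higher with ZNF521 (median 0.10) and 10 with SAG (median -0.010). With ZNF521, 2 genes had an unadjusted p up to 0.05, 1 in each direction, where 2.36% of all genes had one with a higher and 3.11% with a lower value, and both are named after their values were seen. PDYN, prodynorphin, stood at 29.2 and 32.7 normalized counts in CTL and 52.5 and 50.6 in ZNF521 cells (log2 fold change 0.72, SE 0.289, p 0.0267, adjusted p 0.893, edgeR), and 0.66 without CTL DMSO. UCN, urocortin, was lower, at 29.2 and 21.4 against 15.4 and 11.8 (log2 fold change -0.90, adjusted p 0.907, edgeR).

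Of 34 precursors cut by FURIN and its relatives, 29 were tested. With SAG 11 were higher and 18 lower, 3 and 5 of these with an unadjusted p up to 0.05, where 6.21% and 5.12% of all genes had one. With ZNF521 the split was again 11 and 18, with 0 and 5, where the shares over all genes were 2.36% and 3.11%. None passed after adjustment (edgeR). The medians were -0.14 and -0.063, and without CTL DMSO they turned to 0.071 and 0.064 with 20 and 18 genes higher. INHBA, the activin beta A subunit, stood at 173 and 347 normalized counts in CTL DMSO and CTL SAG and 221 and 305 in ZNF521 DMSO and ZNF521 SAG cells (SAG log2 fold change 0.73, SE 0.184, adjusted p 0.391). LRP1, a large endocytic receptor, stood at 5619, 1922, 2302 and 1973, with CTL DMSO far above the rest, and its ZNF521 log2 fold change of -0.64 was 0.16 without that library. TGFB2, a TGF-beta ligand, stood at 845, 1162, 603 and 936, higher with SAG by 0.55 and lower with ZNF521 by a log2 fold change of -0.41 (adjusted p 0.391 and 0.893, edgeR). GPC3, a glypican, had a SAG log2 fold change of -0.54.

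Of 14 transcription factors of neuroendocrine cells 7 were tested, with 5 higher and 2 lower for ZNF521 (median 0.14) and 3 and 4 for SAG (median -0.026). CREB1, which binds the cAMP response element, was counted at 499 and 688 in CTL DMSO and CTL SAG and 601 and 710 in ZNF521 DMSO and ZNF521 SAG cells (SAG log2 fold change 0.35, adjusted p 0.423, edgeR, and 0.044 with offsets for GC content). REST, the repressor of neuronal genes, lay between 491 and 615 normalized counts and ISL1 between 109 and 130. Over all 14970 genes tested, 7393 were higher and 7577 lower with ZNF521 (median -0.0034), and 7497 higher and 7473 lower with SAG (median 0.00055). The 6 granule lineage markers tested had 3 higher and 3 lower for ZNF521, and the 6 neuroendocrine markers 3 and 3 (median 0.035). Without CTL DMSO 4 of the former (median 0.069) and 5 of the latter (median 0.39) were higher. The 8 mesenchymal markers had 0 higher and 8 lower for ZNF521 (median -0.46), and 3 higher with a median of -0.027 without CTL DMSO.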

How the data were processed

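Libraries of 4 DAOY samples were made with a stranded total RNA kit and sequenced as paired 50 nt reads. The study describes them as strand-specific, enriched for poly-A and also depleted of ribosomal RNA. The authors aligned the reads to hg38 and counted reads per gene with STAR 2.7.0e, per their processing notes. The raw table they deposited holds whole counts of 20363 genes. The second deposited table holds signal values, made when the authors divided the counts by DESeq2 size factors (0.887 to 1.19 by library). It lacks 503 genes that had 1 count in all. The annotation and strand setting were not given in the sources used here. GENCODE 44 gave positions, lengths and GC content (19803 genes) here, and RefSeq the promoters.

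Genes with 10 or more counts in 2 or more libraries (14970) were tested by edgeR 4.0.16 in R 4.3.3 (TMM, glmQLFit, glmQLFTest, Benjamini-Hochberg over all genes tested, threshold 0.05), with ZNF521 and treatment as additive terms, and genes with an unadjusted p up to 0.05 were counted beside it. The script was tested on simulated counts. Ratios of 2 libraries carry exact Clopper-Pearson intervals at 95%. These p-values measure only the spread between these libraries. Alternatives were RLE factors, library size alone, no count filter, only genes averaging 50 or more counts, limma 3.58.1, DESeq2 1.42.0, a model of the compared factor alone, each library left out, and GC offsets in 20 bins.

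The members and lists were chosen with earlier results of these data known, and values of PCSK1 had been seen in tables of the study. Some genes of the lists are not reported here. All 10 members were named. From each other list the named genes were up to 4 that averaged 50 or more normalized counts and had the smallest unadjusted p in either comparison. The short list of other subtilisin-like convertases was not held to this rule. Also outside it were POMC, some cell type markers such as CHGA and ATOH1, and the genes said to be named after their values were seen.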

Additional observations from a re-analysis of the deposited data

Results flagged for a closer look

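PAM was the gene whose pairs of libraries moved in opposite directions past counting error. With ZNF521 it stood at 0.925 of the CTL level in DMSO (95% interval 0.881 to 0.971) and at 1.08 in SAG (1.03 to 1.14). With SAG it stood at 0.908 of the DMSO level in CTL cells (0.863 to 0.954) and at 1.06 in ZNF521 cells (1.01 to 1.11). Each condition has 1 library, the same 4 values enter both contrasts, and the difference between the pairs was not tested.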

How the results depend on the processing

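The ZNF521 log2 fold change of PCSK1 lay between 0.72 and 0.78 under the 8 alternatives that kept every library. With SAG, 1 member (SCG2) had an unadjusted p up to 0.05 in the main edgeR fit, where 11.3% of all genes had one. There were 2 with library size alone and with only genes averaging 50 or more counts (PCSK1 added), where 11.2% and 12% did. With GC offsets there was 1 (PCSK1 in place of SCG2), where 4.9% of all genes had such a p. By DESeq2 and with the compared factor alone there were 0, where 2.83% and 9.38% of all genes did. With ZNF521 the 0 members became 1 (PCSK5) with no count filter and with GC offsets, where 6.18% and 5.24% of all genes had such a p (edgeR).

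Leaving out a library leaves only the compared factor in the model and 1 arm with a single library, assumed to vary like the other arm. The members past the adjusted threshold then numbered 0 to 3 in each comparison, as did those at the unadjusted one. The 3 were PCSK5, FURIN and SCG2 in both, without ZNF521 DMSO for SAG, where 30.6% of all genes passed, and without CTL SAG for ZNF521, where 15.6% did.

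Several log2 fold changes turned sign, among them the SAG value of PCSK1, which was -0.31 in the main fit and the lowest of the members. With GC offsets FURIN was 0.072 for SAG, and for ZNF521 PCSK6 was 0.0036, CPE 0.011 and PAM 0.0020. For ZNF521, CPE was 0.0032 with RLE factors, 0.0045 with library size alone, 0.010 with no count filter, 0.0023 with only genes averaging 50 or more counts and 0.0034 by DESeq2, and PAM was 0.00084 with no count filter. With a library left out, the SAG values ran from -0.72 to 0.17 for PCSK1, -0.25 to 0.018 for PCSK6, -0.24 to 0.030 for PCSK7, -0.38 to 0.030 for FURIN, -0.011 to 0.14 for CPE, -0.55 to 0.15 for SCG5 and -0.089 to 0.029 for PAM. The ZNF521 values ran from -0.23 to 0.15 for PCSK6, -0.089 to 0.099 for CPE and -0.084 to 0.077 for PAM. The cause was not tested, and with a library left out the effects of ZNF521 and SAG cannot be told apart. Each condition has 1 library, and at the depth of PCSK2 and SCG5 most of their ratios had intervals that include 1. The labels give no replicate numbers, and the additive model pairs the libraries by the other factor.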
